A study of Drosophila melanogaster with 8 samples.

Results

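The genes described here are the nuclear-encoded subunits of respiratory complex I of Drosophila melanogaster, taken as every gene whose FlyBase symbol starts with ND-. The rule gave 40 of the 13970 genes in the expression table, and the genes of complex I that lie on mitochondrial DNA were left out. RNA bound by J2, an antibody against double-stranded RNA (dsRNA), had been sequenced from the cytosolic and mitochondrial fractions of larvae 4 days after egg laying, with 2 libraries for each of 4 groups. Control larvae had the genotype w;; and the dmpnpaseKO larvae were homozygous for a CRISPR/Cas9 frame shift in CG11337, the fly gene for the mitochondrial polynucleotide phosphorylase, and the genetic background of both was wDah. The labels do not say whether replicates came from separate collections of larvae. The p-values therefore measure the spread between these libraries, which may be technical and is pooled over the 4 groups.

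Complex I takes electrons from NADH, passes them along a chain of iron-sulphur clusters in its matrix arm to ubiquinone, and pumps protons through its membrane arm. Part of its membrane arm is made from mitochondrial DNA, and all its other subunits are encoded in the nucleus, translated in the cytosol and imported. The transcripts described here are therefore cytosolic mRNAs, and inside mitochondria only their protein products have a known role. PNPase degrades RNA within mitochondria together with the helicase SUV3.

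Values are given as TPM, a measure of abundance corrected for transcript length that has 1 fixed total per library. The number of reads behind a value is unknown, strands are not separated, and libraries without J2 were not analysed here, so abundance in a fraction and recovery by J2 cannot be told apart. Between 42.7% and 96.6% of each library fell on pseudogenes of nuclear rRNA, and all nuclear-encoded genes other than rRNA together held between 0.0446% and 1.18%. Genes above 0 numbered between 61 and 11051. The lowest of these counts was dmpnpaseKO cytosol replicate 2, in which every cytosolic ribosomal protein gene was listed at 0, so that a 0 there is not read as absence. The mRNAs of mitochondrial DNA held 0.676% to 17.4% of TPM in the mitochondrial fraction and 0.0130% to 2.13% in the cytosolic fraction. The targeted gene CG11337 was listed at 0 in all libraries except control mitochondria replicate 1 (0.0197 TPM) and dmpnpaseKO mitochondria replicate 1 (0.0415 TPM), so it gives no check of the genotype labels.

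ND- transcripts were rare in all 8 libraries and were highest in dmpnpaseKO mitochondria. Summed over the 40 genes, the TPM were 88.5 and 37.5 in the dmpnpaseKO mitochondria and 6.27 and 2.90 in the control mitochondria. In the cytosolic fraction the control sums were 0.0988 and 1.47 and the dmpnpaseKO sums 9.92 and 0. Both dmpnpaseKO mitochondrial libraries thus lay above all others, while the dmpnpaseKO cytosolic libraries lay on both sides of the controls. In the mitochondrial fraction the mean was 63.0 ± 36.1 TPM in dmpnpaseKO larvae and 4.59 ± 2.38 TPM in controls (SD, n = 2 each), a 13.7-fold ratio, and the lower dmpnpaseKO library was 5.98 times the higher control. No test was made on the sum.

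The number of ND- genes above 0 followed the same order of groups in the mitochondrial fraction. It was 35 and 33 of 40 in dmpnpaseKO mitochondria and 32 and 15 in control mitochondria. In the cytosol it was 24 and 0 for dmpnpaseKO larvae, with 1 and 4 for controls. These counts move with the number of genes above 0 in the library, and the part this plays was not tested. That number was 11051 and 7681 for mitochondria of dmpnpaseKO larvae and 8757 and 4846 for those of controls. For cytosol it was 4736 and 61 with dmpnpaseKO and 984 and 2093 with control larvae. The 5 genes ND-B8, ND-20L, ND-24L, ND-49L and ND-B14.5AL were listed at 0 in every library.

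**Figure D1:**
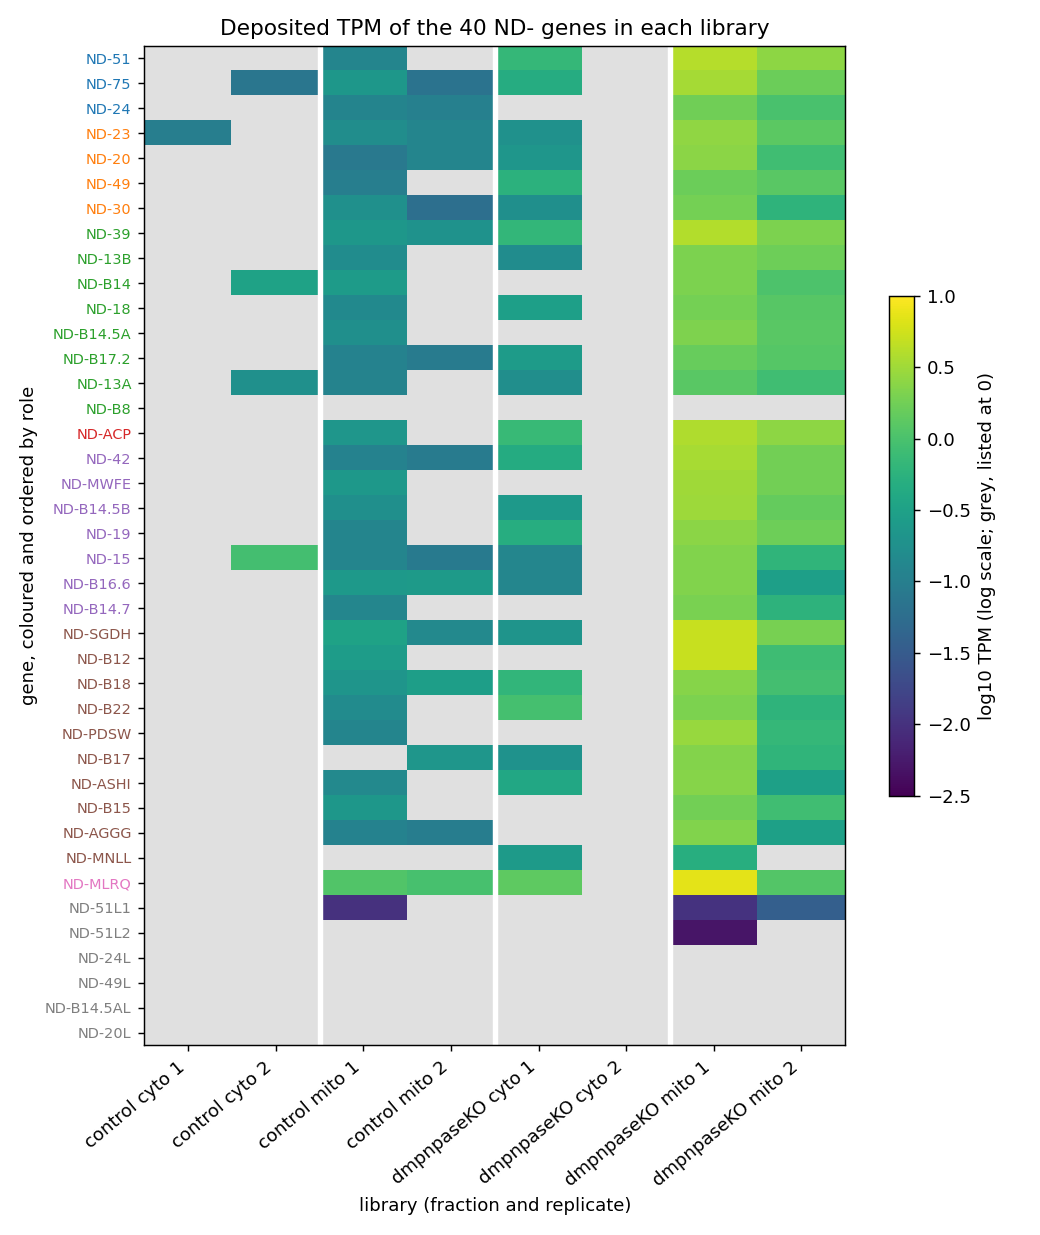
Deposited TPM of the 40 ND- genes (rows, ordered and coloured by role) in the 8 libraries (columns), as log10 TPM on a colour scale, with grey for a gene listed at 0. Between 1 and 4 genes are above 0 in the control cytosol, 24 in dmpnpaseKO cytosol replicate 1 and 0 in replicate 2, and 35 and 33 in the dmpnpaseKO mitochondria.

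A gene's level decided whether it could be tested. ND-MLRQ (mean 1.47 TPM over the 8 libraries) was the 1 gene to reach the chosen minimum, a mean of 1 TPM, and ND-SGDH came next at 0.952 TPM. The fit with limma across the 475 genes above that minimum therefore says little about complex I. A second fit used the 11606 genes above 0 in any library, with the same scaling on 8 rRNA pseudogenes and the same log2(scaled TPM + 1) values, of which 35 are ND- genes. It was put forward after the data had been seen, and each count below names its fit. On this scale a change of a gene below 1 TPM is understated. Each gene has 1 spread for all groups, and a group with both libraries at 0 adds none to it. Standard errors and p for the mitochondrial fraction can therefore be too small for genes at 0 in the cytosol. ND-24, for example, was at 0 in every cytosolic library.

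In the mitochondrial fraction, most nuclear complex I transcripts were more abundant in the J2-bound RNA of dmpnpaseKO larvae than of controls. In the fit without a minimum, 26 of the 40 genes rose and 0 fell at an adjusted p of at most 0.05 (limma, Benjamini-Hochberg), 9 did not pass and 5 could not be tested. Over all 11606 genes, 47.2% rose. In the fit with a minimum of 1 TPM, where 78.7% of genes rose, the 1 testable ND- gene was not past the threshold. In 33 of the 40 genes both dmpnpaseKO libraries lay above both controls on scaled TPM, an order found for 62.8% of the 11606 genes. The rises depended on the scaling reference. With libraries scaled by the median of ratios or to an equal sum of nuclear-encoded TPM, 0 of the 40 passed. The median of ratios rested on 31 genes, those outside mitochondrial DNA above 0 in every library, dmpnpaseKO cytosol replicate 2 included. When the mitochondrial libraries were fitted alone, 20 of the 40 rose, beside 2223 of all 11606 genes. Of all 11606 genes, 5474 rose and 51 fell under the scaling used here, 164 rose and 24 fell with the median of ratios, and 0 rose and 5 fell with nuclear-encoded TPM. The count was lower with control mitochondria replicate 2 left out, which leaves 1 control library in that fraction. The median log2 fold change of the ND- genes was then 1.15, beside 0.14 over all genes.

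The core subunits that oxidise NADH, the N module, included the gene with the highest estimate of all. ND-51 (FBgn0031771, chromosome 2L, 6060842 to 6062757, minus strand), the flavoprotein that binds NADH, had 4.07 and 2.57 TPM in dmpnpaseKO mitochondria and 0.125 and 0 TPM in control mitochondria. Its level in the cytosol was 0.680 and 0 TPM in dmpnpaseKO larvae and 0 in both controls. The groups did not overlap in the mitochondrial fraction, and the log2 fold change there was 1.99 (SE 0.24, limma adjusted p = 0.00422). ND-75 (FBgn0017566, chromosome X, 8248651 to 8251687, minus strand), the large iron-sulphur subunit, had 3.41 and 1.63 TPM against 0.226 and 0.0682 TPM in control mitochondria. It rose by 1.56 on the log2 scale (SE 0.24, limma adjusted p = 0.00543), and it was 1 of the 4 genes above 0 in control cytosol replicate 2, at 0.0738 TPM. ND-24 (FBgn0030853, chromosome X, 17632089 to 17633509, plus strand), the smaller iron-sulphur partner of ND-51, had 1.76 and 0.999 TPM against 0.120 and 0.107 TPM and rose by 1.06 (SE 0.10, limma adjusted p = 0.00392). All 3 N module genes were thus higher in both dmpnpaseKO mitochondrial libraries, as were 62.8% of all 11606 genes, with ND-24 the lowest of the 3.

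The core subunits that hand electrons to ubiquinone, the Q module, all rose in the same fit, with estimates from 0.91 to 1.32 that overlap those of the N module (1.06 to 1.99). In that fit 47.2% of all 11606 genes rose. ND-23 (FBgn0017567, chromosome 3R, 15836048 to 15837117, minus strand), which carries iron-sulphur clusters, had 2.62 and 1.31 TPM in dmpnpaseKO mitochondria and 0.166 and 0.125 TPM in control mitochondria. Its log2 fold change was 1.32 (SE 0.16, limma adjusted p = 0.00444). It was also the only ND- gene above 0 in control cytosol replicate 1, at 0.0988 TPM, and it stood at 0.186 and 0 TPM in the dmpnpaseKO cytosol. ND-49 (FBgn0039909, chromosome 4, 568296 to 571554, minus strand), which helps to form the ubiquinone site, had 1.66 and 1.26 TPM against 0.101 and 0 TPM, with a log2 fold change of 1.21 (SE 0.19). ND-20 (FBgn0030718, chromosome X, 15985473 to 15986808, minus strand), which holds the last cluster before ubiquinone, had 2.44 and 0.856 TPM against 0.0815 and 0.123 TPM, with 1.16 (SE 0.22). ND-30 (FBgn0266582, chromosome 3L, 3158485 to 3159578, minus strand) is the orthologue of NDUFS3. It had 1.84 and 0.601 TPM against 0.181 and 0.0599 TPM, the lowest log2 fold change of the 7 core genes at 0.91 (SE 0.21, limma adjusted p = 0.0153). For every core gene both dmpnpaseKO mitochondrial libraries lay above both controls. That order was found for 62.8% of all 11606 genes and 93.6% of the 814 genes of similar level.

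Accessory subunits surround this core and serve in assembly and stability. Of the 8 matrix arm accessory genes, 7 rose, with log2 fold changes from 0.94 (ND-13A) to 1.68 (ND-39), and ND-B8 could not be tested. Beside the counts by role, 47.2% of all 11606 genes and 82.1% of the 814 genes of similar level rose in this fit. ND-39, the orthologue of NDUFA9, had 4.01 and 2.05 TPM in dmpnpaseKO mitochondria and 0.222 and 0.191 TPM in control mitochondria. Of the 7 accessory genes of the proximal membrane arm, 5 rose, with ND-42 highest at 1.66 (SE 0.21), and ND-15 (1.01, SE 0.47) and ND-B16.6 (0.66, SE 0.34) did not pass. ND-B16.6, the orthologue of NDUFA13, had 2.20 and 0.294 TPM in dmpnpaseKO mitochondria and 0.246 and 0.259 TPM in controls, so that only 1 dmpnpaseKO library was far from the controls.

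Beside 47.2% of all genes and 82.1% of genes of similar level, 6 of the 10 accessory genes of the distal membrane arm rose. ND-SGDH (FBgn0011455, chromosome 3L, 12137496 to 12138584, minus strand), the orthologue of NDUFB5, led them with 5.02 and 1.92 TPM against 0.329 and 0.141 TPM in control mitochondria. Its log2 fold change was 1.76 (SE 0.26, limma adjusted p = 0.00508), the third highest of all 40. ND-B22, ND-ASHI, ND-AGGG and ND-MNLL did not pass, with estimates between 0.26 and 1.02. The position of ND-MNLL lies over all 720 bp of its exons within another gene of the same strand, CG45089, so its value of 0.498 and 0 TPM in dmpnpaseKO mitochondria is uncertain. Levels were low here as among the other ND- genes. Wide standard errors were common in this group, which the plot of log2 fold changes shows.

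ND-ACP (FBgn0011361, chromosome 3L, 1329949 to 1331631, plus strand) is the mitochondrial acyl carrier protein, which also serves fatty acid and iron-sulphur cluster synthesis. It had 3.82 and 2.55 TPM in dmpnpaseKO mitochondria and 0.220 and 0 TPM in control mitochondria, with the second highest log2 fold change (1.90, SE 0.25, limma adjusted p = 0.00467). Both dmpnpaseKO libraries lay above both controls in this fraction, an order found for 62.8% of all 11606 genes.

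ND-MLRQ (FBgn0052230, chromosome 3L, 23339326 to 23345936, plus strand) is the orthologue of NDUFA4, which is now placed with complex IV in mammals. It had the highest mean level of the 40 but was not among the genes that rose. Its levels were 7.18 and 1.15 TPM in dmpnpaseKO mitochondria, 1.14 and 0.960 TPM in control mitochondria, 1.35 and 0 TPM in the dmpnpaseKO cytosol and 0 in both control cytosol libraries. The second dmpnpaseKO mitochondrial library was thus next to the controls. The log2 fold change was 1.04 in the mitochondrial fraction (SE 0.58, limma adjusted p = 0.112 in the fit with a minimum of 1 TPM and 0.220 without a minimum), and it turned to -0.34 under median-of-ratios scaling and -0.98 under scaling to nuclear-encoded TPM.

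The like-named paralogues carry the name of a core or accessory subunit with the ending L, L1 or L2. Of these 6, ND-51L1 was above 0 in 3 libraries, at 0.0104 and 0.0366 TPM in dmpnpaseKO mitochondria and 0.00982 TPM in control mitochondria replicate 1, and ND-51L2 in 1, at 0.00494 TPM in dmpnpaseKO mitochondria replicate 1. The other 4 were listed at 0 throughout. Neither of the tested paralogues passed in the mitochondrial fraction (log2 fold changes 0.03 and 0.00), and both stood far below ND-51 in length-corrected TPM.

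**Figure D2:**
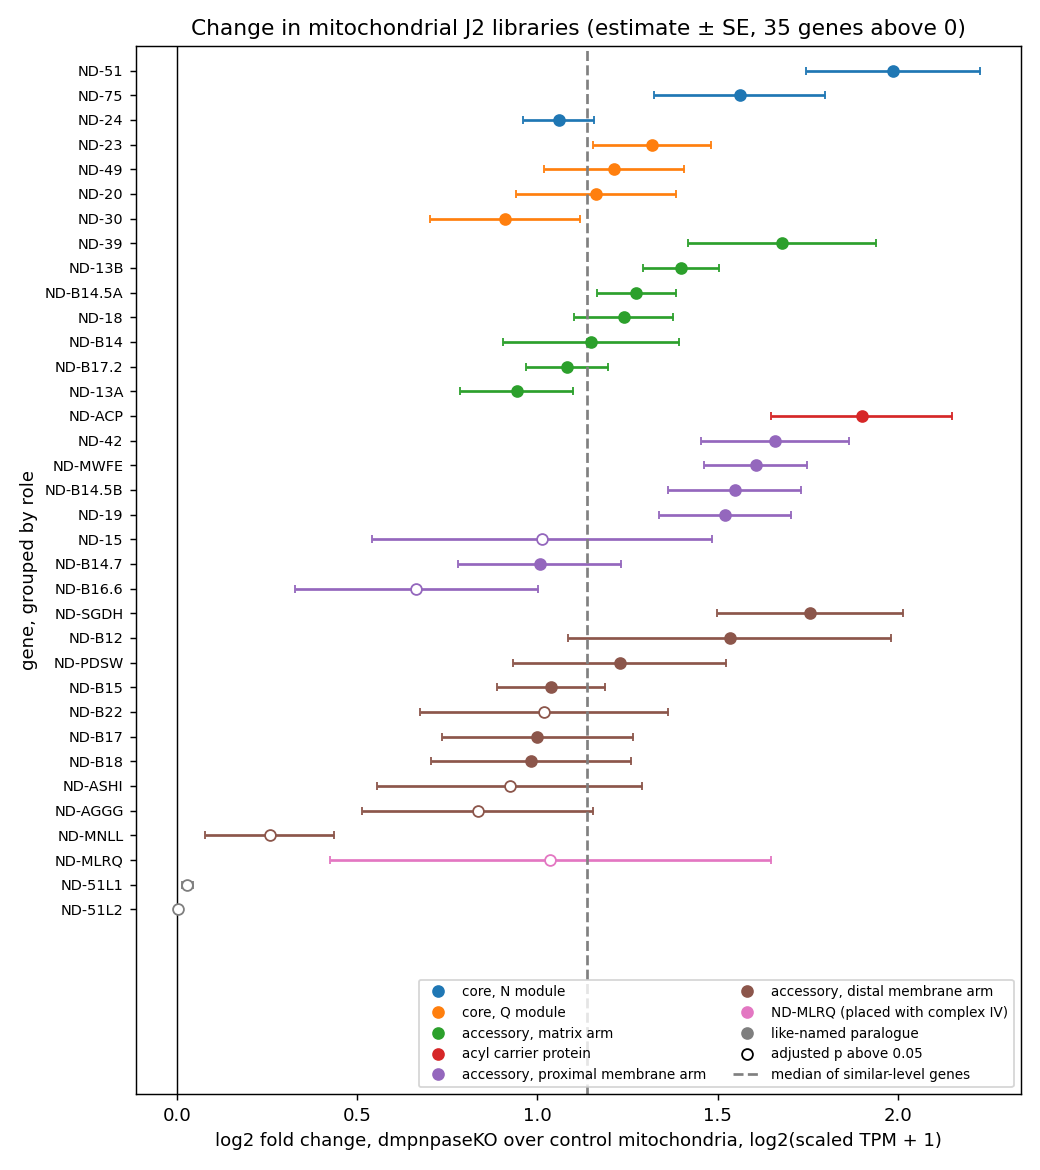
Log2 fold change of each ND- gene above 0, dmpnpaseKO over control mitochondria on log2(scaled TPM + 1), from the limma fit without a minimum level (points, estimates; bars, SE; 2 libraries per group; colours, role). Filled points passed an adjusted p of 0.05, and the dashed line is the median of 814 nuclear-encoded genes of similar level (1.14), close to the median of the 35 ND- genes (1.15).

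Nuclear-encoded genes of similar level had nearly the same median change on the log2 scale. The comparison set was the 814 other nuclear-encoded genes with a mean between 0.322 and 1.47 TPM, the range of the 32 ND- genes whose mean was 0.1 TPM or more. Of these 814 genes, 668 (82.1%) rose, 8 fell, and 762 (93.6%) lay higher in both dmpnpaseKO mitochondrial libraries than in both controls. Of the 32 ND- genes within the same range, 26 (81.2%) rose. The set and the 32 were both kept by a mean in which dmpnpaseKO mitochondria weigh most, so these shares are not evidence for a rise. The medians of the log2 fold changes were 1.14 for the set and 1.15 for the 35 ND- genes, and over all 11606 genes the median was 0.14.

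The ratio of mean TPM, which has no pseudocount, placed the ND- genes somewhat above that set. For the 32 ND- genes the ratio of dmpnpaseKO to control mitochondria ran from 3.97 (ND-MLRQ) to 52.9 (ND-51) with a median of 17.1 and quartiles of 12.8 and 22.1. For the 801 genes of similar level with a ratio, the median was 10.4 and the quartiles 6.08 and 18.4, and 221 of them exceeded 17.1. Both sets were kept by the same mean, so this difference is not evidence for a larger rise of the ND- genes. In the control cytosol 1 and 4 of the 40 ND- genes were above 0, against 230 and 352 of the 814 genes. The ratio of ND-51 rests on control values of 0.125 and 0 TPM. Subunits of complexes II to V, the remaining parts of oxidative phosphorylation, had a median ratio of 11.9 (37 genes), mitochondrial ribosomal proteins 21.2 (52 genes) and cytosolic ribosomal proteins 23.8 (75 genes). These lists had no minimum level other than a value above 0 in both groups, and no test was made of the differences. The order was another on the log2 scale of the fit, which understates low genes: the median was 0.30 for mitochondrial ribosomal proteins, 1.15 for the ND- genes, 1.99 for complexes II to V and 3.64 for cytosolic ribosomal proteins. Of the 41 genes for complexes II to V, 30 rose in the fit without a minimum, with 67 of 80 for cytosolic and 39 of 70 for mitochondrial ribosomal proteins.

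The ND- genes also took a larger share of the nuclear-encoded TPM in dmpnpaseKO mitochondria. The share was 0.747% and 0.641% there against 0.476% and 0.385% in control mitochondria, without overlap and with a ratio of means of 1.61. The same ratio was 1.56 for complexes II to V, 1.81 for mitochondrial ribosomal proteins, 2.54 for cytosolic ribosomal proteins and 0.875 for the genes of similar level. In the cytosol this share of the nuclear-encoded TPM was 0.0222% and 0.174% in controls, with 0.624% and 0 for dmpnpaseKO larvae. Its highest cytosolic value was thus close to the dmpnpaseKO mitochondria and above the control mitochondria.

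Complex I and the other complexes kept a nearly fixed proportion. The summed TPM of the ND- genes was 0.295 and 0.258 of that of complexes II to V in dmpnpaseKO mitochondria, against 0.271 and 0.263 for control mitochondria. It was 0.270 in control cytosol replicate 2 and 0.244 in dmpnpaseKO cytosol replicate 1, and the lowest was 0.165 in control cytosol replicate 1, where 1 ND- gene was above 0. The genotypes overlapped in this ratio in the mitochondrial fraction.

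**Figure D3:**
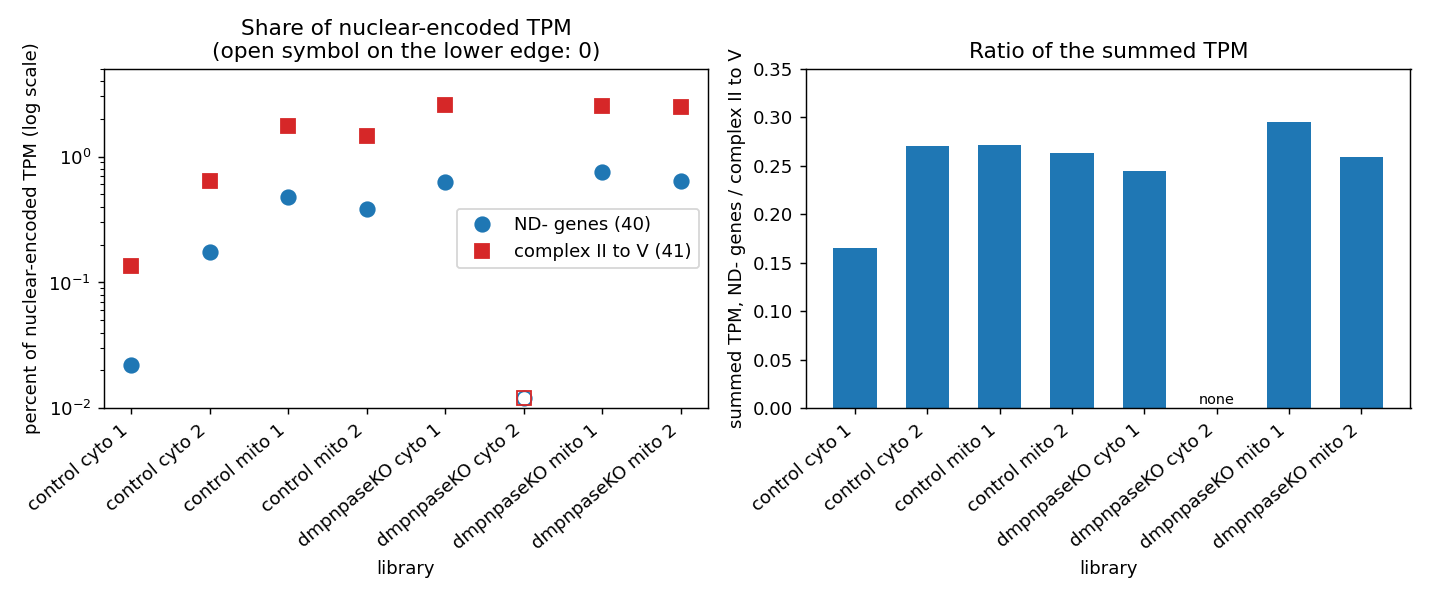
Left, percent of nuclear-encoded TPM (log scale) on the 40 ND- genes (circles) and on the 41 genes of complexes II to V (squares) in each library, with open symbols on the lower edge for 0. Right, summed TPM of the ND- genes divided by that of complexes II to V, which lies between 0.244 and 0.295 in 6 libraries, at 0.165 in control cytosol replicate 1, and has no value in dmpnpaseKO cytosol replicate 2.

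Other complex I genes passed in part. NP15.6, a subunit gene without the ND- prefix, had 2.86 and 1.42 TPM in dmpnpaseKO mitochondria and 0.163 and 0.109 TPM in control mitochondria, and it rose by 1.41 on the log2 scale (limma adjusted p = 0.00554). The assembly factors CIA30, sicily and ECSIT stayed at or below 0.416 TPM in every library, and 1 of the 3 passed. The 6 complex I mRNAs of mitochondrial DNA in the table summed to 10380 and 46563 TPM in dmpnpaseKO mitochondria and 1133 and 7338 TPM in control mitochondria. None of the 6 passed (smallest limma adjusted p = 0.767 without a minimum and 0.111 with a minimum of 1 TPM), and 4 of them did not overlap between genotypes. Relative to them, the nuclear genes were rarest in both second mitochondrial libraries, at 0.000806 and 0.000396 of their sum against 0.00853 and 0.00554 in both first libraries. This ratio between nuclear and mitochondrial complex I transcripts therefore varied more between replicates than between genotypes.

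The dmpnpaseKO mitochondrial replicates differed among the ND- genes by role. Replicate 1 was higher for 34 of the 40, with a median ratio of 2.05 over the 33 genes above 0 in both, beside 2.02 for the sum of nuclear-encoded TPM. The ratio exceeded 3 for 11 of these 33 genes (33.3%), against 16.2% of 792 genes of similar level and 17.6% of 34 genes of complexes II to V. Of the 11, 6 are distal membrane arm genes, 3 proximal membrane arm genes, 1 is the Q module gene ND-30, at 3.07, and 1 is ND-MLRQ. The summed TPM of the distal arm genes was 3.76 times higher in replicate 1, and that of the matrix arm accessory genes 1.60 times. ND-B12 (5.06 and 0.818 TPM), ND-ASHI (2.30 and 0.309 TPM) and ND-AGGG (2.15 and 0.308 TPM) were the distal arm genes farthest apart. This pattern was seen in the data and has no test, and with 1 pair of libraries it has no replicate of its own.

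**Figure D4:**
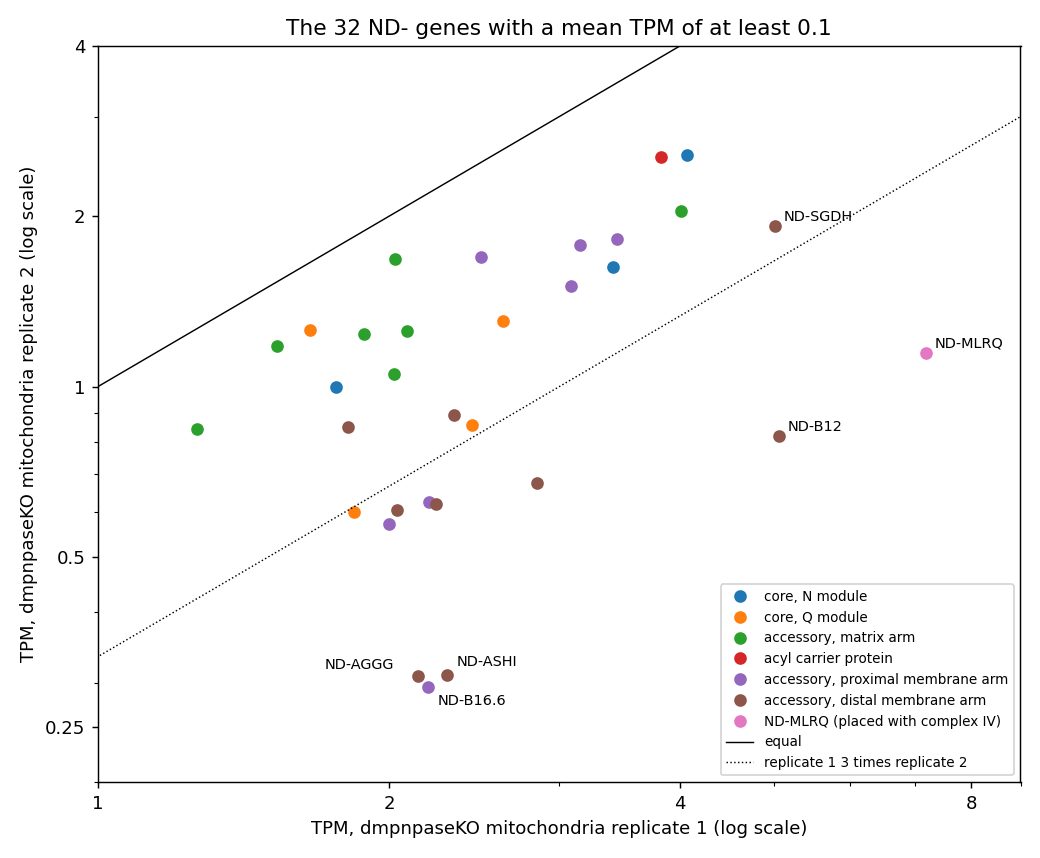
TPM of the 32 ND- genes whose mean was 0.1 TPM or more in dmpnpaseKO mitochondria replicate 1 (x axis, log scale) and replicate 2 (y axis, log scale), coloured by role. The solid line marks equal values and the dotted line a ratio of 3, below which 11 genes lie, 6 of them of the distal membrane arm.

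Length and overlap with neighbouring genes were described for the ND- genes from the annotation. Their exons covered a median of 844 bp, against 1784 bp for the genes of similar level, and over the 32 genes Spearman's rho between exonic length and log2 fold change was 0.06, a description over genes that share libraries. Exons of 16 of the 40 genes (40%) overlapped an exon of a gene on the opposite strand, by 8 to 227 bp, against 24.7% of the 795 genes of similar level that have an annotation. Among the 32 genes, the median log2 fold change was 1.15 for the 15 with an overlap and 1.21 for the 17 without. ND-B22 had the longest overlap (227 bp, with CG31855) and did not pass the test, while ND-51 overlapped CG34180 by 97 bp and ND-ACP had no overlap.

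In the cytosol, no ND- gene differed between genotypes beyond the spread of the libraries. At an adjusted p of at most 0.05 (limma), 0 of the 40 genes passed in the fit without a minimum and 0 in the fit with a minimum of 1 TPM, and over all genes 0% rose in either. None had an unadjusted p under 0.05, and all adjusted p were 1. With every ND- gene at 0 in dmpnpaseKO replicate 2, none of the 40 could lie above both controls in both libraries, an order found for 0.362% of all genes. The 2 dmpnpaseKO libraries were far apart: replicate 1 lay above both controls for 22 genes, of which 20 were at 0 in both controls, while replicate 2 had no ND- gene above 0. The count of 22 has no background over all genes. Without dmpnpaseKO cytosol replicate 2, 1 library is left in that group, so only estimates are given. The median log2 fold change of the ND- genes was then 0.23, beside 0.21 for genes of similar level and 0 over all genes.

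Single genes in the cytosol showed the same split. The 3 highest estimates were ND-MLRQ (0.59, SE 0.61), ND-B22 (0.44, SE 0.34) and ND-ACP (0.37, SE 0.25), each above 0 in dmpnpaseKO replicate 1 and in no other cytosolic library, at 1.35, 0.915 and 0.715 TPM. The 3 lowest were ND-15 (-0.62, SE 0.47), ND-B14 (-0.33, SE 0.24) and ND-13A (-0.10, SE 0.16), the genes other than ND-75 above 0 in control cytosol replicate 2. ND-15 had 0.895 TPM in that library and 0.127 TPM in dmpnpaseKO replicate 1.

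Between fractions of control larvae, no ND- gene passed either. In the fit with a minimum of 1 TPM 0 of 40 rose, beside 0.842% of genes, and in the fit without a minimum 0 of 40 rose, beside 0.0258% (limma, with 0 ND- genes under an unadjusted p of 0.05). Both mitochondrial libraries lay above both cytosolic libraries for 12 of the 40, close to the 27.3% of all genes. All 12 were among the 32 ND- genes with a mean of 0.1 TPM or more (37.5%), beside 50.0% of the genes of similar level. ND-MLRQ had the highest estimate, 0.98 (SE 0.61 without a minimum), followed by ND-B18 and ND-B16.6, both 0.31. ND-15 (-0.56), ND-B14 (-0.20) and ND-13A (-0.14) were the lowest, again with their value in control cytosol replicate 2. In control mitochondria 14 genes were above 0 in both libraries, and 18 were above 0 in replicate 1 and at 0 in replicate 2.

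Between fractions of dmpnpaseKO larvae, the mitochondria had more of most ND- transcripts. In the fit without a minimum 27 of the 40 rose and 0 fell (limma), beside 49.2% of all genes. The 27 were all among the 32 ND- genes with a mean of 0.1 TPM or more (84.4%), beside 81.4% of genes of similar level. Both of these sets were kept by a mean in which dmpnpaseKO mitochondria weigh most. In the fit with a minimum of 1 TPM ND-MLRQ passed with a log2 fold change of 1.43 (SE 0.58, limma adjusted p = 0.0338), beside 81.1% of genes, and without a minimum it did not (adjusted p = 0.105). Its deposited levels overlapped between these fractions, at 7.18 and 1.15 TPM in mitochondria and 1.35 and 0 TPM in cytosol. The 0 is in dmpnpaseKO cytosol replicate 2, where a 0 is not read as absence. Both mitochondrial libraries lay above both cytosolic libraries for 31 of the 40, beside 62.5% of all genes. With dmpnpaseKO cytosol replicate 2 left out the count was also 31, beside 62.8%, while limma then called 19 of 40, beside 25.5% of all genes. The 3 highest estimates were ND-SGDH (1.90, SE 0.26), ND-MWFE (1.73, SE 0.14) and ND-51 (1.70, SE 0.24). Under median-of-ratios scaling 3 of the 40 passed, and under scaling to nuclear-encoded TPM 0.

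The genotype effect was compared between fractions by the interaction term of the same fit. It was past the threshold for 17 of the 40 genes, beside 18.6% of all genes, and in each of the 17 the genotype difference was larger in mitochondria (limma without a minimum). In the fit with a minimum of 1 TPM ND-MLRQ did not pass (0.45, adjusted p = 0.629), beside 30.5% of genes. ND-51 and ND-SGDH had the highest interaction estimates, both 1.63 (adjusted p = 0.0340 and 0.0368), and ND-15 had a like estimate that did not pass (1.63, adjusted p = 0.126). The count of 17 was not stable, and with replicate number added to this fit as a block it was 0. It was also 0 with unscaled TPM, median-of-ratios scaling and scaling to nuclear-encoded TPM, and in each of these 0 of all 11606 genes passed. The count moved with each library left out, a fit with 1 library in a group, so only estimates are given here. The median interaction estimate of the ND- genes then ran from 0.92 to 1.32, and over all genes from 0.10 to 0.18.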

How the data were processed

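The authors quantified paired-end reads of J2-bound RNA with Salmon 0.11.3 against BDGP6 cDNA (release 94) and deposited TPM per gene, which sum to the same total in each library. The rRNA pseudogene scaling of their methods is not in the deposited TPM, and the step from transcripts to genes is not given in the sources used here. Libraries were grouped by their labels, 2 in each of 4 groups. The ND- genes and all lists were chosen with earlier results of these data known.

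Each library was scaled on the mean of the 8 rRNA pseudogenes named in those methods. limma 3.58.1 (R 4.3.3, eBayes with trend) was fitted to log2(scaled TPM + 1) of all 8 libraries with 4 group means, for genes whose mean TPM was 1 or more, and p was adjusted by Benjamini-Hochberg at 0.05. Since 1 ND- gene reached that minimum, fits with a minimum of 0.1 TPM and with none were also run. The fit without a minimum had been listed as an alternative and was put forward with the counts of all of these in view. The alternatives combined with it, the fit of the mitochondrial libraries alone and the range used for similar level were chosen after seeing the data.

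Not overlapping means that both libraries of one group exceed both of the other. A 2 against 2 permutation test cannot give p below 0.333, and none was used. The fits with a minimum of 1 TPM and of 0.1 TPM were tested on simulated data, and the fit without a minimum was not. The simulated noise had 1 size per gene in all groups, so groups with both libraries at 0 were not imitated. Named genes are those whose mean reached 1 TPM, the 7 core genes, the paralogues and the 3 highest and lowest estimates in each contrast, and other genes were named after their values were seen. Positions are from Ensembl release 115 of BDGP6. Alternatives were other scalings, pseudocounts of 0.1 and 10, a minimum of 5 TPM, no trend, a replicate block and each library left out. Median-of-ratios factors came from the 31 genes outside mitochondrial DNA that were above 0 in all 8 libraries. Figures were drawn with matplotlib 3.10.9.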

Additional observations from a re-analysis of the deposited data

Results flagged for a closer look

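The genotype effect differed between fractions for 17 of the 40 ND- genes by the interaction term (limma without a minimum level, adjusted p from 0.0312 to 0.0417), each with the larger difference in mitochondria. The same held for 18.6% of all 11606 genes. All 17 were among the 32 ND- genes with a mean of 0.1 TPM or more (53.1%), beside 40.3% of the 814 genes of similar level. Both of these sets were kept by a mean in which dmpnpaseKO mitochondria weigh most. The count of 17 was 0 with unscaled TPM, median-of-ratios scaling and scaling to nuclear-encoded TPM. The number of genes above 0 also differed, with 61 in dmpnpaseKO cytosol replicate 2, and 0 genes passed without that library.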

How the results depend on the processing

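Between genotypes in the cytosol and between fractions of controls, 0 ND- genes passed under every alternative run. For dmpnpaseKO against control mitochondria, the count of 0 with a minimum of 1 TPM became 26 without a minimum, 29 with a minimum of 0.1 TPM and 28 with that minimum and a pseudocount of 0.1, and 0 to 1 with a library left out. For dmpnpaseKO mitochondria against cytosol, the count of 1 with a minimum of 1 TPM became 27, 29 and 30 in these 3 fits, and 0 under median-of-ratios scaling, scaling to nuclear-encoded TPM, a pseudocount of 10 and no trend, with 0 to 1 when a library was left out. For the interaction, the count of 0 with a minimum of 1 TPM became 17, 22 and 8. A minimum of 5 TPM leaves no ND- gene. Beside the counts of 26, 27 and 17 without a minimum, 47.2%, 49.2% and 18.6% of all 11606 genes were higher in these 3 comparisons. The share of all genes in the fits with a minimum of 0.1 TPM is not given here, so their counts have no background.

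In the fits without a minimum, the count of 26 was 0 under median-of-ratios and 0 under nuclear-encoded scaling, and 17 to 33 with a library left out. The count of 27 was 3 and 0 under these scalings, and the median estimate ran from 0.95 to 1.45 with a library left out. The interaction count of 17 was 0 under unscaled TPM, median-of-ratios and nuclear-encoded scaling, and 3 with a pseudocount of 0.1. It moved with each library left out, with median estimates from 0.92 to 1.32. With a minimum of 0.1 TPM, the count of 29 for genotype was 0 under both scalings and 24 to 31 with a library left out. The count of 29 between fractions was 6 and 0 under these scalings, and 23 to 30 with a library left out. The interaction count of 22 was 0 under unscaled TPM, median-of-ratios and nuclear-encoded scaling, 8 with a pseudocount of 0.1, and 0 to 27 with a library left out. A library left alone in its group is assumed to vary like the other groups. Median-of-ratios and nuclear-encoded scaling moved the median genotype change in mitochondria of all 11606 genes from 0.14 to 0.02 and 0.00, and that of the ND- genes from 1.15 to 0.35 and 0.28. The cause of these changes was not tested.

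With the replicate block, the genotype count in mitochondria was 28 without a minimum and 29 with a minimum of 0.1 TPM. The interaction counts were 0 and 24. Same-numbered libraries deviated together in mitochondria (r = 0.68 over 475 genes), less so between control cytosol and control mitochondria (r = 0.35), and not in the cytosol (r = -0.01) or between the dmpnpaseKO fractions (r = 0.02). The labels do not say what a replicate number shares, so the block was not used for the main counts.

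ND-MLRQ reversed in mitochondria to -0.34 under median-of-ratios and -0.98 under nuclear-encoded scaling. Its interaction estimate reversed to -0.89 and -1.89 under these scalings and to -0.43 with a pseudocount of 0.1, with and without the minimum of 0.1 TPM, and ran from -0.39 to 1.28 with a library left out (-0.14 without dmpnpaseKO cytosol replicate 2). TPM carry no depth, so no limit of detection can be given.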
